A study of Mus musculus with 4 samples.

Results

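Fibroblasts with at least 3 unique molecular identifiers (UMIs) of Pi16, which encodes the secreted peptidase inhibitor 16, were examined in single-cell RNA-seq libraries of mouse back skin. A cell was a member if it had at least 500 detected genes, at least 1000 gene UMIs and at most 10% mitochondrial UMIs, if Col1a1, Col1a2, Col3a1 and Dcn together made up at least 1% of its UMIs, if it had no UMI of Ptprc (CD45), and if Sostdc1, Wif1, Rspo3, Corin and Hhip, genes of hair follicle dermal cells, summed to fewer than 10 UMIs. The rule took in 10789 of 28607 cells that passed the quality limits, from 34306 deposited barcodes. Of these members, 2093 came from the Cd226-/- library treated with DMBA and TPA, 3064 from the WT library given the same treatment, 5530 from untreated CD45- cells and 102 from untreated CD45+ cells. Pi16, the 4 collagen and decorin genes, Ptprc and the hair follicle genes chose the members and are given only as descriptions.

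Pi16 marks a fibroblast of the deep fascia and of the outer wall of vessels that is also found in many other organs. Such cells carry Dpp4 and Cd34, lie in loose matrix with elastic microfibrils, and are described as a reserve from which other fibroblasts can form. Skin fibroblasts make the collagen of the dermis and also release chemokines that call leukocytes into inflamed tissue.

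DMBA (7,12-dimethylbenz[a]anthracene) is a mutagen and TPA (12-O-tetradecanoylphorbol-13-acetate) is a tumour promoter that inflames skin. CD226, also called DNAM-1, is an activating receptor of T cells and natural killer cells. The Cd226-/- DMBA/TPA and WT DMBA/TPA libraries each held cells pooled from 3 BALB/c mice that had received a single dose of 25 µg DMBA and then, beginning after 1 week, 3 weekly doses of 5 µg TPA, with tissue taken 3 weeks after treatment. In both, sorted CD45+ and CD45- cells had been mixed in equal parts. The naive CD45- library held the sorted CD45- fraction of untreated skin, with WT and Cd226-/- cells pooled in equal parts, so it is a common baseline of mixed genotype and not a baseline for either genotype. Each group was 1 library, so there was no replicate error and no test. Intervals are 95% intervals that cover counting error only, and mice, handling and the sort could not be told apart from treatment or genotype. Because both treated libraries were set against the same naive library, those 2 comparisons share it.

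The libraries held 71245703 gene UMIs (Cd226-/- DMBA/TPA), 72606822 (WT DMBA/TPA) and 81406730 (naive CD45-), of which members held 29553372, 36977575 and 41260306. Median UMIs per member were 12942, 10777 and 6786 in the same order, so a fixed Pi16 threshold reached further in the treated cells. Between 9 and 21 barcodes were shared by any pair of libraries, and at most 5 of the shared barcodes were members in both. The rule removed no doublets. Scrublet called 17, 36 and 489 of the members doublets in the 3 libraries, and leaving them out turned no called value to the other direction. The deleted gene could not be checked in these cells, because Cd226 had 0, 1 and 0 UMIs in members. Over all cells that passed the quality limits it had 127 UMIs in the library labelled Cd226-/- and 225 in the WT library, and reads outside a deleted part would still be counted.

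The label was checked against the fascia markers, which were on balance higher in members. Of the 33 fascia markers other than Pi16 that had enough UMIs, 27 were at least 1.5-fold higher in members than in fibroblasts without Pi16 UMIs of the Cd226-/- DMBA/TPA library. The count was 23 of 33 in WT DMBA/TPA and 29 of 34 in naive CD45-, and 0 were 1.5-fold lower in any library. Over all genes the share 1.5-fold higher in members was 11.4%, 9.58% and 18.5%. Anxa3, which encodes an annexin, stood at 586 CPM (UMIs per 1000000 UMIs, summed over the cells) in members and 43.8 in fibroblasts without Pi16 in the Cd226-/- library, at 404 and 33.8 in WT, and at 745 and 26.8 in naive skin. Dpp4, a surface peptidase used to sort fascia fibroblasts, stood at 237 and 20.9, 183 and 17.3, and 415 and 82.1. Mfap5, a microfibril protein, stood at 1381 and 481, 1058 and 608, and 1496 and 79.9. Dpt (dermatopontin) stood at 1394 and 721, 1529 and 792, and 1697 and 788. Clec3b (tetranectin) stood at 2530 and 1741 in Cd226-/- and 2409 and 1950 in WT, under 1.5-fold, and at 4229 and 2064 in naive cells. In each of the 3 libraries 21 of these markers were higher. Thy1, also on the list, was somewhat lower in members of each library, at 257 and 305, 278 and 349, and 159 and 184, and Tppp3 was under 1.5-fold higher in each. These differences describe cells that were chosen on a gene that goes with these markers.

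**Figure D1:**
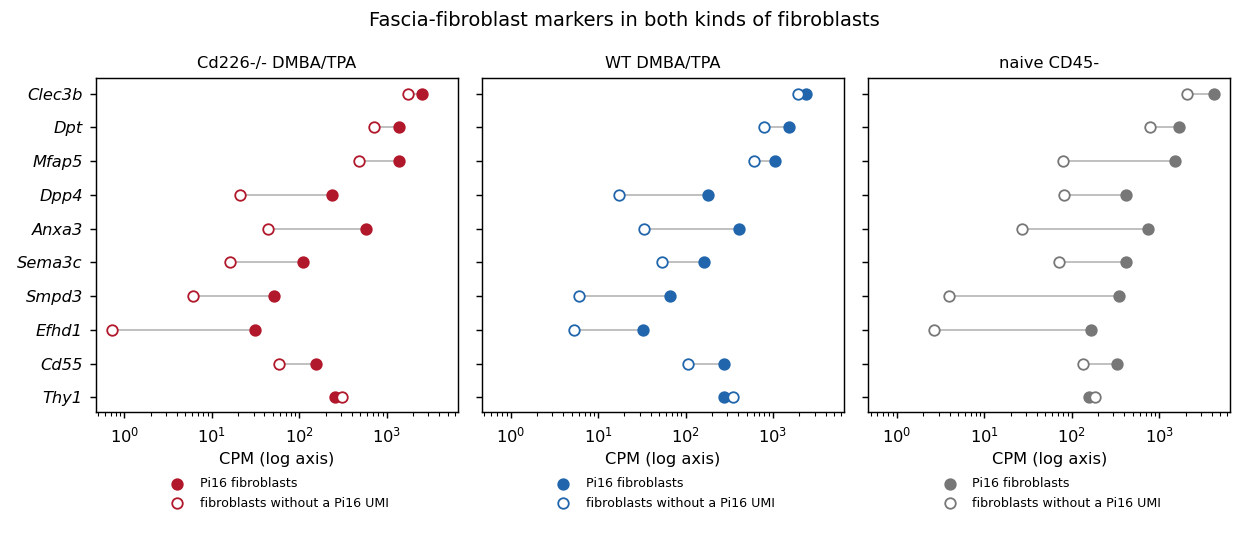
Summed CPM (log axis) of 10 fascia markers in Pi16 fibroblasts and in fibroblasts with no Pi16 UMI, with a panel each for Cd226-/- DMBA/TPA, WT DMBA/TPA and naive CD45-. For Mfap5 the gap was wider in naive CD45- (1496 and 79.9) than in the treated libraries.

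Among fibroblasts defined by collagen and decorin, members made up 75.8% (exact binomial interval 74.2 to 77.4) in Cd226-/- DMBA/TPA, 75.6% (74.3 to 76.9) in WT DMBA/TPA and 51.4% (50.4 to 52.3) in naive CD45-. The intervals of the treated libraries overlapped, and both shares stood above naive skin. Since depth differed, each fibroblast was also thinned to the same number of UMIs. At 5000 UMIs the shares with at least 3 Pi16 UMIs were 66.2% (64.3 to 68.0), 68.4% (66.9 to 70.0) and 46.0% (44.8 to 47.1), so the order of treated above naive stayed. At 2000 UMIs they were 48.2%, 46.7% and 37.6%, and at 10000 UMIs 76.5%, 78.8% and 45.3%. As a background, cells below the collagen share held 66.9, 63.1 and 54.9 CPM of Pi16 against 2470, 2155 and 3988 in members. Fibroblasts with no Pi16 UMI numbered 394, 500 and 2889, and a smaller number of these cells cannot be told apart from a larger number of members in a share.

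**Figure D2:**
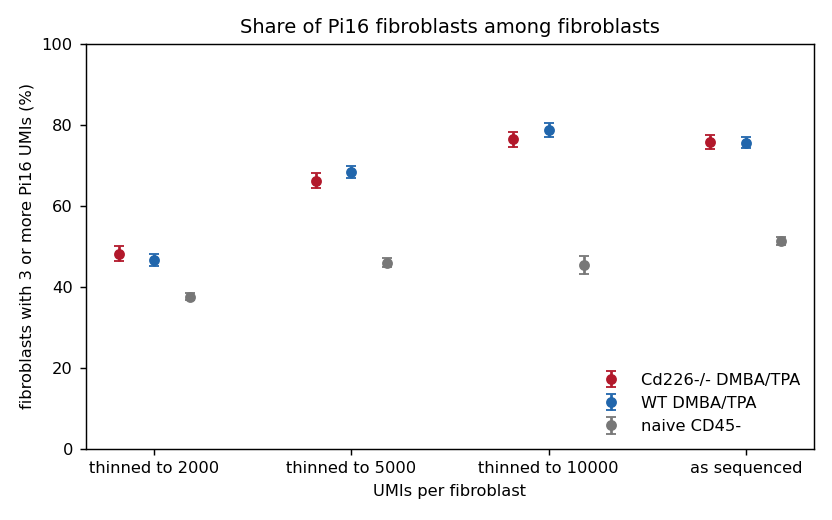
Share (%) of fibroblasts with at least 3 Pi16 UMIs at full depth and after thinning to 2000, 5000 and 10000 UMIs, with exact binomial 95% intervals, for Cd226-/- DMBA/TPA, WT DMBA/TPA and naive CD45-. At every depth both treated libraries lie above naive CD45-.

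Members were not uniform. Cells just inside the threshold (3 Pi16 UMIs) numbered 92, 178 and 505 in Cd226-/- DMBA/TPA, WT DMBA/TPA and naive CD45-, and cells just outside (2 UMIs) 111, 197 and 835. Mfap5 stood at 735 CPM inside and 728 CPM outside in Cd226-/-, at 730 and 800 in WT and at 103 and 99.5 in naive skin. The naive cells at the threshold were thus close to naive fibroblasts without Pi16 (79.9) and far from the mean of naive members (1496). Each library's members were therefore also split into tertiles by their own Pi16 per UMI, as a description of the range. Dpp4 went with Pi16 across the lowest, middle and highest tertile, at 63.0, 261 and 459 in Cd226-/-, 43.5, 162 and 436 in WT, and 146, 511 and 703 in naive cells. Ccl11, the eosinophil attractant eotaxin, was also highest in the highest tertile, at 620 in Cd226-/-, 575 in WT and 390 in naive cells.

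Col1a1, Tnc and Saa3 ran the other way. Col1a1 stood at 14696, 7754 and 4425 in the lowest, middle and highest tertile of Cd226-/- members, at 24235, 14866 and 5654 in WT members and at 63387, 21156 and 8900 in naive members. Tnc (tenascin-C, a matrix protein of wounds) stood at 170, 107 and 45.3 in Cd226-/-, at 373, 293 and 37.5 in WT and at 1.76, 0.35 and 0.09 in naive members. Saa3, an acute-phase serum amyloid, stood at 3881, 2114 and 830 in Cd226-/- and at 1403, 1068 and 305 in WT. The matrix gene Dcn, which the rule used, did not decline in treated members, at 12915, 12788 and 14444 in Cd226-/-. It stood at 12967, 12652 and 13045 in WT members. In naive members it declined, at 17158, 15491 and 14118. Adm (adrenomedullin, a vasoactive peptide) had its lowest value in the lowest tertile in every library, at 782 in Cd226-/-, 240 in WT and 22.6 in naive cells. A ratio between libraries over all members can thus differ from the ratio in the cells richest in Pi16, and values of the highest tertile are given beside results that differed there.

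**Figure D3:**
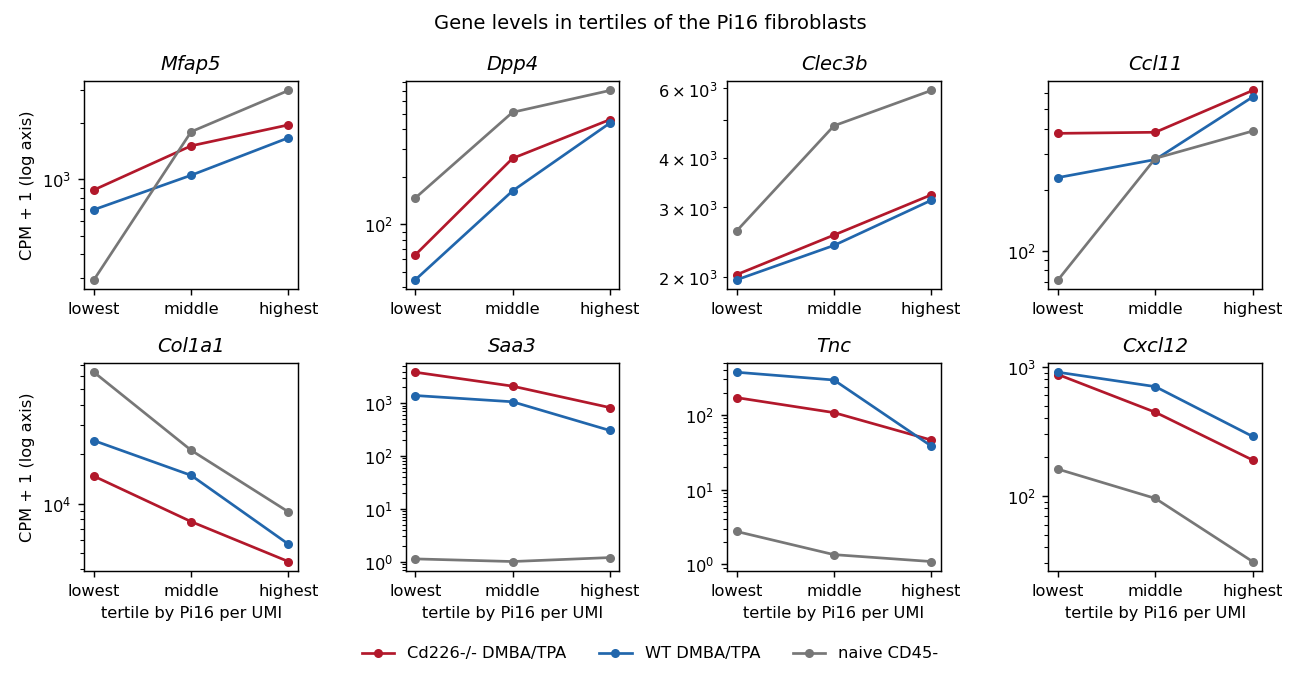
Levels of 8 genes (CPM plus 1, log axis) in the tertiles of Pi16 fibroblasts by Pi16 per UMI, with a line each for Cd226-/- DMBA/TPA, WT DMBA/TPA and naive CD45-. Mfap5 and Dpp4 climb toward the highest tertile and Col1a1 and Tnc decline.

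The comparison of the treated libraries with naive skin addressed how these cells differ after DMBA and TPA. UMIs were summed over members as CPM, and a gene with at least 50 UMIs over both libraries was called at 1.5-fold. For all genes in Cd226-/- DMBA/TPA against naive CD45-, 17.6% were higher and 15.3% lower (12204 genes), with a median log2 ratio of 0.08. In WT DMBA/TPA against naive CD45-, 14.3% were higher and 12.7% lower (12373 genes), with a median of 0.07. Scaling by trimmed means in place of totals moved the Cd226-/- log2 ratios by 0.10. In the highest Pi16 tertile 1322 of 10273 genes were higher and 1369 lower in Cd226-/-, and 1155 of 10416 were higher and 1065 lower in WT.

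The acute-phase genes Saa3, Saa1 and Lcn2 had few UMIs in naive members and many in treated ones. Serum amyloids, which are secreted with high-density lipoprotein, and lipocalin 2, which binds bacterial siderophores, are known targets of C/EBP and NF-kappaB factors. Saa3 held 2458 CPM in Cd226-/- DMBA/TPA, 1012 in WT DMBA/TPA and 0.0969 in naive CD45- members. Saa1 held 63.4, 29.7 and 0.0242, and Lcn2 held 146, 91.0 and 0.194. The naive values rest on few UMIs, so the ratios have wide intervals. Saa3 was 25352-fold (9901 to 93050) higher in Cd226-/- and 10441-fold (4078 to 38323) higher in WT, and Lcn2 752-fold (381 to 1743) and 469-fold (238 to 1088). Saa1 and Saa2 are near-identical copies whose reads the counting could split, so their separate levels are uncertain.

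The promoters of Saa3, Saa1 and Lcn2 are shown because these genes stood among those farthest above naive skin, and because the C/EBP motif TTGCNNAA was found in each. The motif was chosen after the values were seen. The sequences are 250 bases before to 50 bases after the gene start, from RefSeq on GRCm38.p6, read along the gene's strand, with the motif match in capitals. Saa3 (chr7:46715627-46715926, minus strand) carries it on the opposite strand, 99 bases before the start, Saa1 (chr7:46742931-46743230, minus strand) 182 bases before and Lcn2 (chr2:32387690-32387989, minus strand) 216 bases before.
Saa3: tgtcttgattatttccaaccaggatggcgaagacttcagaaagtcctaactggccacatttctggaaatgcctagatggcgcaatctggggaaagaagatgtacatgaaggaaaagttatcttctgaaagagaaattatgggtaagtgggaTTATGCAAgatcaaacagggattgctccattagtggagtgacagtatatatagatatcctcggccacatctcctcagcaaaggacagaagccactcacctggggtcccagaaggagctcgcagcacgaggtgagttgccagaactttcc
Saa1: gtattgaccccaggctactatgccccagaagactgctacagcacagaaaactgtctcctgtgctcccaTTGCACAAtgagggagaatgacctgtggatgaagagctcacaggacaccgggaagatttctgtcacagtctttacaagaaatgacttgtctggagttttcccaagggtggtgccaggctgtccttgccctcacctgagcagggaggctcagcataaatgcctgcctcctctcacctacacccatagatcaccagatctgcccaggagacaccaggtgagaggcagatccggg
Lcn2: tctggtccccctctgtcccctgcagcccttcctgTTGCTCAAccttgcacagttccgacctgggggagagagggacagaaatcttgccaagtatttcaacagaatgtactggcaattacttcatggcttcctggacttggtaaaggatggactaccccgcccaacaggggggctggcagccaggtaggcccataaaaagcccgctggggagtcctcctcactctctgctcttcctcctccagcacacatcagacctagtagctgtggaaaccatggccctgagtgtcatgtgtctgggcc
Over 32851 promoters of this length, 10.8% hold this motif on either strand. An NF-kappaB motif, GGG and TTTCC with a pair of free bases between them, was also searched on both strands. It is held by 1.63% of promoters and had no match in these windows. A match is a description of the letters and not a binding site, and a missing match says only that these letters are not in the window.

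Free RNA can give UMIs in cells that do not express a gene, so shares of cells are set beside cells with Ptprc and below the collagen share. At 5000 UMIs, Saa3 was found in 32.5% of Cd226-/- members, 19.3% of WT members and 0.0713% of naive members (39.5%, 22.9% and 0.0723% before thinning). Cells with Ptprc gave 29.7% in Cd226-/- and 19.6% in WT (28.9% and 19.3% before thinning), at median depths of 6583 and 6073 UMIs. The Saa3 shares of members are at or close to these and are not read as cells expressing it. Cells with Ptprc may make Saa3 themselves, so their shares cannot decide whether members express it. The summed level in treated members was above that of cells below the collagen share, which held 444 CPM in Cd226-/- and 190 in WT. Saa1 was found in 6.13% of Cd226-/- members, against 0.105% of Cd226-/- cells with Ptprc, and in 4.02% of WT members. Lcn2 was found in 24.4% of Cd226-/- members and 14.5% of WT members, against 16.1% and 17.1% of cells with Ptprc. The WT share is not above that of cells with Ptprc. Those cells may make Lcn2 themselves, so their share cannot decide whether WT members express it. Cells below the collagen share held more Lcn2 than members did, at 245 CPM in Cd226-/- and 269 in WT, and the part of their RNA in the Lcn2 of members was not tested. Prg4 (lubricin, a joint and tissue lubricant) was found in 72.9%, 49.3% and 0.571% of members, against 2.41%, 2.03% and 2.17% of cells with Ptprc. The naive CD45- library had only 87 cells with Ptprc before thinning, so its 2.17% rests on few cells.

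Prg4 held 888, 391 and 1.38 CPM in Cd226-/-, WT and naive members, 643-fold (496 to 849) and 283-fold (218 to 374) higher in the treated libraries. Fgf23, the phosphate hormone best known from bone, held 40.3 and 15.0 in treated members and had no UMI in naive ones. Set against a floor of 3 UMIs over the naive members, it was 554-fold and 207-fold higher, with lower interval limits of 450 and 168. In the highest Pi16 tertile it held 9.04 and 1.39. Other genes among those farthest above naive skin were Alpl (tissue alkaline phosphatase), at 34.7, 56.2 and 0.412, and Chl1 (a neural adhesion molecule), at 132, 165 and 2.69. Ptx3, a pentraxin of innate immunity, held 1260, 471 and 49.3.

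**Figure D4:**
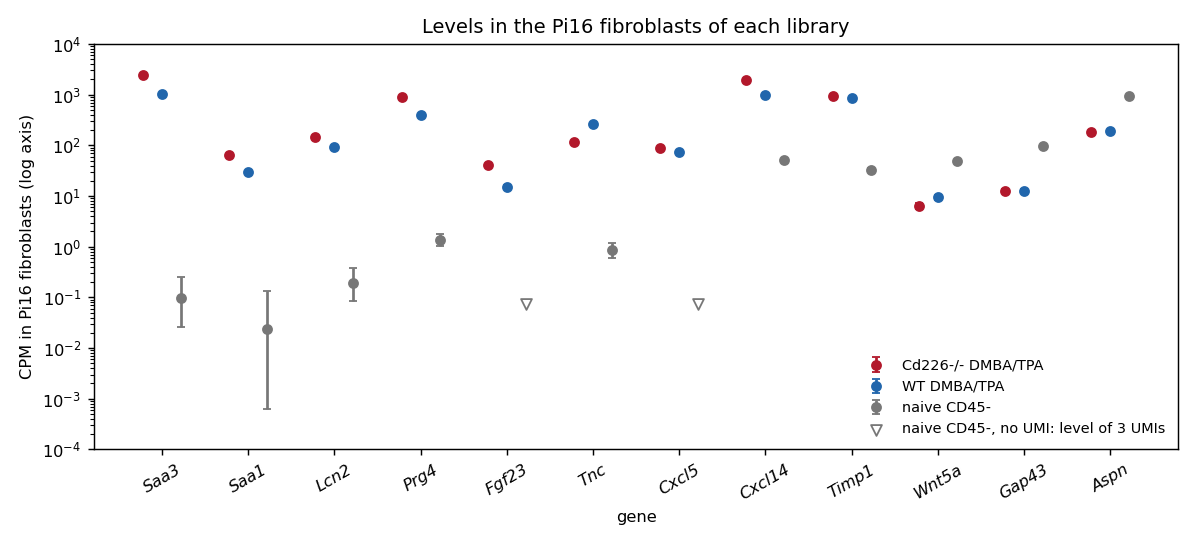
Summed CPM (log axis) of 12 genes in Pi16 fibroblasts of Cd226-/- DMBA/TPA, WT DMBA/TPA and naive CD45-, with 95% Poisson intervals. Triangles mark the level of 3 UMIs for genes with no UMI in naive CD45- members, Fgf23 and Cxcl5.

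Chemokine genes stood higher as a group. Of 25 with enough UMIs, 21 were higher and 1 lower in Cd226-/- members than in naive ones, with a median log2 ratio of 2.38. In WT members 20 of 26 were higher and 2 lower, with a median of 2.35. Cxcl14 held 1954, 991 and 50.3 CPM in Cd226-/-, WT and naive members, 38.8-fold (37.2 to 40.6) and 19.7-fold (18.8 to 20.6) higher. Cxcl1, which draws neutrophils, held 1106, 979 and 127, and Cxcl5, with the same known role, held 90.0 and 72.9 in treated members (43.4 and 9.66 in the highest tertile) and had no UMI in naive ones. Cxcl12, the ligand of CXCR4, held 541, 680.2 and 104. Cxcl13, which draws B cells, held 750.0, 1009 and 201 and was also higher in the highest Pi16 tertile. Ccl2, the monocyte attractant, held 348, 439.6 and 234, but in the highest tertile it held 79.9, 92.7 and 131, so the direction turned there.

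The wider list of cytokines, acute-phase genes and receptors had 29 of 42 genes higher and 3 lower in Cd226-/- members than in naive members (median 1.82), and 30 of 41 higher and 5 lower in WT members (median 1.42). Il6 held 116, 84.9 and 31.8, and Il33, an alarmin, held 347, 255 and 70.9. In the highest tertile Il33 held 207, 159 and 151, under 1.5-fold, so its call ended there. Osmr, the oncostatin M receptor, held 112, 90.2 and 13.1, and Il1r1 held 216, 171 and 46.0. Il17ra, the IL-17 receptor chain, held 137, 108 and 34.9, and Cebpd, a C/EBP factor gene, held 1755, 1147 and 536. In the highest Pi16 tertile the chemokine list had 14 of 18 genes higher in Cd226-/- and 16 of 22 in WT, and the cytokine list 25 of 37 and 23 of 37.

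Leukocyte markers were also higher in treated members, at 12 of 13 measured macrophage and monocyte markers in Cd226-/- and 11 of 13 in WT. The full 16 macrophage and monocyte markers summed to 119, 102 and 64.3 CPM in Cd226-/-, WT and naive members, with Ptprc at 0 by the rule, against 15904, 11441 and 10144 in cells below the collagen share. Langerhans and dendritic cell markers were higher at 5 of 5 and 7 of 7 and summed to 87.7, 99.6 and 8.41, with Itgax and Xcr1 at 0 in Cd226-/- and Xcr1 at 0 in WT. Neutrophil and mast cell markers summed to 52.8, 77.4 and 21.1, and lymphocyte markers to 42.6, 24 and 10.2. Mcpt8 was at 0 in Cd226-/-, and Ms4a2 and Cd4 were at 0 in WT. Genes that leukocytes make in quantity, such as Il1b, S100a8 and Ccl3, are for that reason not named among the results. The part of leukocyte RNA in the other list members was not tested. Leaving out members with at least 3 UMIs of other cells' markers left the median of both lists above 0. That step drops cells rich in such UMIs and not free RNA spread thinly over members, so it cannot measure the part of leukocyte RNA.

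Of the matrix genes, the fibrillar collagen chains Col1a1, Col1a2 and Col3a1 were lower and the basement membrane chain Col4a1 was higher. Col1a1 held 9567, 16360 and 34860 CPM in Cd226-/-, WT and naive members, so it was 3.64-fold (3.63 to 3.66) and 2.13-fold (2.12 to 2.14) lower in treated skin. Col1a2, Col3a1 and Sparc were lower in both treated libraries as well, with Sparc at 12005, 17693 and 36082. Col1a1, Col1a2 and Col3a1 also set the fibroblast limit, so they describe the members and support nothing. Over the 25 collagen genes measured, 7 were higher and 10 lower in Cd226-/-, and 6 were higher and 9 lower in WT. Both lower counts include Col1a1, Col1a2 and Col3a1. Col4a1 held 1077, 1072 and 256, and Col8a1, a short-chain collagen of vessels, held 128, 21.5 and 4.27. Tgfbi, a TGF-beta-induced adhesion protein, held 61.2, 117 and 783, and the collagen-binding proteoglycan Aspn 179.8, 190.5 and 952.

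Genes of wound matrix leaned higher in Cd226-/- and were split in WT. Of 28 in the list of wound matrix and contraction, 14 were higher and 6 lower in Cd226-/- members, and 10 higher and 9 lower in WT members. Tnc held 115, 261 and 0.848, Thbs1 (thrombospondin 1) held 355, 287 and 12.6, and Timp1, an inhibitor of matrix metalloproteinases, held 936, 863 and 33.3. Of 35 matrix proteases and inhibitors, 12 were higher and 9 lower in Cd226-/-, and 13 higher and 8 lower in WT.

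Genes of fascia identity were lower on balance. In Cd226-/- members 17 of 35 fascia markers were lower and 3 higher than in naive members, and in WT members 15 were lower and 2 higher, with medians of -0.38 and -0.40. In the highest Pi16 tertile 18 and 15 were lower, and 2 and 2 higher. Sema3c, a guidance ligand, held 109.7, 164 and 415 CPM, the progenitor antigen Cd34 526, 643 and 1342, and the pericyte and stromal antigen Cd248 291, 355 and 684. Gap43, a growth cone protein of neurons, held 12.6, 12.7 and 96.7, and Smpd3 (neutral sphingomyelinase) 51.5, 66.0 and 343. Mfap5 held 1381, 1058 and 1496, and Pi16 itself 2470, 2155 and 3988, which the rule used. Pi16 was among the lower markers in each of these counts, also in the tertile that it set. Its place in them supports nothing.

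Wnt genes were lower as well. Of 29 measured ligands, modulators and targets, 19 were lower and 4 higher in Cd226-/- members, with a median log2 ratio of -1.13. In WT members 17 of 30 were lower and 5 higher, with a median of -0.79. Wnt2 held 51.7, 31.7 and 117, Wnt5a 6.29, 9.47 and 49.7, and the secreted antagonist Sfrp2 327, 127 and 896. Axin2, a feedback target of the pathway, held 2.61, 4.46 and 15.2. In the highest tertile 14 of 23 and 9 of 23 were lower. Tgfb2 held 44.5, 75.1 and 235, and Bmp7 held 27.2, 22.9 and 96.5.

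The genes farthest below naive skin included Il18r1, Adcy1, Cdh4 and Stmn4. Il18r1, a chain of the IL-18 receptor, held 0.406, 0.406 and 28.1 CPM, and was 69.2-fold (39.5 to 134) lower in Cd226-/- and 69.3-fold (41.8 to 124) lower in WT. Adcy1, an adenylyl cyclase, held 0.677, 0.595 and 27.4, and Cdh4 (R-cadherin) held 3.93, 10.5 and 96.5. Stmn4, a tubulin-binding stathmin, held 0.609, 3.16 and 39.1. At each of these genes the naive value was the highest of the 3. The naive level was much lower in the highest tertile for Cdh4, at 0, 1.18 and 3.11, and for Adcy1, at 1.38, 1.07 and 7.62. Naive fibroblasts without Pi16 held 219.7 of Cdh4. Schwann cell and melanocyte markers summed to 58.7, 235 and 83.9 CPM, and their part in these values was not tested.

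Complement genes were mostly higher over all members, at 12 of 20 in Cd226-/- (3 lower) and 11 of 20 in WT (2 lower). In the highest Pi16 tertile 6 of 17 were higher and 4 lower in Cd226-/-, and 7 of 18 higher and 4 lower in WT. C4b held 620.4, 525 and 203, and Masp1, a protease of the lectin pathway, held 42.0, 60.3 and 5.26. Cell cycle genes were higher over all members, at 22 of 25 in Cd226-/- and 17 of 24 in WT, with 0 lower in either. In the highest Pi16 tertile only 5 and 6 of these genes had enough UMIs, and 2 and 2 were higher. At 5000 UMIs, 0.931%, 0.515% and 0.238% of members had UMIs of at least 2 of 14 cycle genes. The shares of cells with Ptprc were 5.28%, 9.49% and 8.70%, the last from a library with 87 such cells before thinning. Cells with Ptprc may cycle themselves, so their shares do not measure free RNA alone and cannot decide whether members cycle. No cycling is read from the member shares.

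Fibroblasts without Pi16 UMIs were set beside the members, as a description with no test of the difference. Against naive skin their chemokine medians were 3.06 in Cd226-/- and 2.84 in WT, and their cytokine medians 1.55 and 1.32, so both lists stood higher in them too. Their Wnt medians were -0.10 and -0.07, against -1.13 and -0.79 in members. Their collagen medians were 0.61 and 0.56, against -0.50 and -0.21 in members, and their fascia marker medians 0.05 and 0.30. The collagen list includes Col1a1, Col1a2 and Col3a1, which set the fibroblast limit. Over all genes tested in these fibroblasts the medians were 0.29 and 0.32.

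The Cd226-/- and WT libraries had the same treatment, and the comparison between them asked how the members differ with genotype. Since no source used here gives the BALB/c substrain of each line, strain background and the Cd226 deletion cannot be told apart in any value of this comparison. It concerned fewer genes than either comparison with naive skin. Of 12115 genes, 5.79% were at least 1.5-fold higher and 6.86% lower in Cd226-/- members, with a median log2 ratio of 0.04. Fascia markers were 0 higher and 3 lower of 35. In the highest Pi16 tertile they were 0 higher and 6 lower of 35, where 4.72% of all genes were higher and 6.18% lower. Over all members, pan-fibroblast genes were 0 higher and 2 lower of 16. The lower pan-fibroblast genes were Col1a1 (9567 in Cd226-/- and 16360 in WT) and Col1a2 (12825 and 20255). Both set the fibroblast limit, so this count describes the members and supports nothing. Saa3, Prg4, Ptx3 and Adm, named above, were higher in Cd226-/-.

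Adm held 1041 CPM in Cd226-/- members and 308 in WT members, 3.38-fold (3.30 to 3.45) higher, and 43.3 in naive members. Edn1 (endothelin 1, a vasoconstrictor) held 112 and 29.7, 3.77-fold (3.52 to 4.04) higher, against 35.5 in naive members. Calcrl, the receptor chain for adrenomedullin and CGRP, ran the other way at 15.3 and 64.4, 4.2-fold (3.80 to 4.66) lower, against 55.4 in naive members. Saa3 was 2.43-fold (2.40 to 2.46) higher, Prg4 2.27-fold (2.23 to 2.32), Ptx3 2.68-fold (2.63 to 2.72) and Cxcl14 1.97-fold (1.95 to 2.00). Over the cytokine list, 12 of 43 genes were higher and 7 lower, and over the chemokine list 6 of 26 were higher and 4 lower. In the highest tertile 4 of 22 chemokine genes were higher and 7 lower, and 8 of 39 cytokine genes were higher and 10 lower. Neither list leaned higher there. Over all 10203 genes tested in that tertile, 4.72% were higher and 6.18% lower.

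Matrix genes higher in Cd226-/- were Ctgf (connective tissue growth factor), at 282 and 60.1, 4.69-fold (4.48 to 4.92) higher, and Col8a1, at 128 and 21.5, 5.97-fold (5.53 to 6.46) higher. In the highest Pi16 tertile Col8a1 held 39.8 and 16.6. P4ha3, a prolyl hydroxylase of collagen chains, held 14.9 and 1.73, 8.58-fold (6.59 to 11.3) higher. Fbln7 (fibulin 7) held 70.2 and 17.0, Thbs4 (thrombospondin 4) 33.6 and 6.71, and the actin crosslinker Actn1 33.6 and 11.7. Mgarp, a mitochondrial protein, held 8.15 and 0.514, 15.9-fold (9.94 to 26.8) higher. Clu (clusterin, a secreted chaperone) held 44.4 and 9.76. Each of these genes was also higher in the highest tertile.

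Other matrix genes were lower in Cd226-/-. Has2, which makes hyaluronan, held 8.90 in Cd226-/- and 35.1 in WT, 3.94-fold (3.45 to 4.52) lower, against 59.3 in naive members. Mfap4, a microfibril protein, held 347 and 847, against 541. Grem1, a secreted antagonist of BMPs, held 47.8 and 189.7, 3.97-fold (3.75 to 4.2) lower, against 12.3. In the highest tertile Grem1 held 7.91 and 11.5, under 1.5-fold, so the call ended there. Tnc held 115 and 261, but 45.3 and 37.5 in the highest tertile, where the direction turned. Tppp3, a tubulin-binding protein and a fascia marker, held 62.8 and 248, against 172 in naive members.

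Retinoid genes split. Aldh1a3, which makes retinoic acid, held 166 in Cd226-/- and 61.7 in WT, 2.68-fold (2.55 to 2.82) higher, and Cyp26b1, which breaks it down, held 54.3 and 236, 4.35-fold (4.13 to 4.59) lower. Naive members held 106 of Aldh1a3 and 45.3 of Cyp26b1. For Cyp26b1 the WT library stood apart, with Cd226-/- and naive members close to each other. Both directions were the same in the highest tertile, at 419.5 and 184 for Aldh1a3 and at 10.3 and 50.2 for Cyp26b1. Wnt genes were lower in Cd226-/- at 13 of 28, with 3 higher and a median of -0.53, while Sfrp2 stood at 327 and 127.

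Interferon-gamma response genes were lower in Cd226-/- at 7 of 33 with 1 higher, and the median log2 ratio was -0.31. In WT members 16 of 33 were higher than in naive members and 0 lower, and in Cd226-/- members 11 were higher and 3 lower. Gbp4, a guanylate-binding protein of host defence, held 3.69 in Cd226-/-, 16.1 in WT and 4.02 in naive members. Gbp2 held 48.9, 75.4 and 38.8, and the immunoproteasome gene Psmb9 35.5, 57.2 and 41.6. In the highest tertile both were under 1.5-fold between the treated libraries, with Gbp2 at 67.8 and 98.4 and Psmb9 at 45.7 and 66.2. Cd274, which encodes PD-L1, held 3.38, 6.84 and 3.17. Cxcl9 held 9.71, 27.2 and 0.654, but in the highest tertile 3.01 and 1.72, where the direction turned. Class I and II genes were 0 higher and 3 lower of 15, and H2-K1 held 494, 737 and 466, under 1.5-fold between the treated libraries. In the highest tertile class I and II genes were 0 higher and 5 lower of 13, and interferon-gamma response genes 1 higher and 4 lower of 28. There 4.72% of all genes were higher and 6.18% lower. In fibroblasts without Pi16 UMIs the medians were -0.705 for class I and II genes and -0.62 for interferon-gamma response genes, against -0.33 and -0.31 in members.

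Cell cycle genes were higher in Cd226-/- at 15 of 27 with 0 lower, but only 5 had enough UMIs in the highest tertile, with 0 higher and a median of -0.03. Keratinocyte markers were lower in Cd226-/- at 11 of 13, and the 17 markers summed to 72.2 CPM in Cd226-/-, 152 in WT and 107 in naive members. Krt15, Krt6b, Krt16 and Dsp had no UMI in Cd226-/- members. Schwann cell and melanocyte markers were lower at 6 of 9 with 1 higher. Macrophage markers were higher at 6 of 14 with 0 lower. The part of RNA from these cells in the other values between the treated libraries was not tested. Krt20, with 0.440 and 6.90, is a keratin of other epithelia and of Merkel cells, and it was not on the keratinocyte list.

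**Figure D5:**
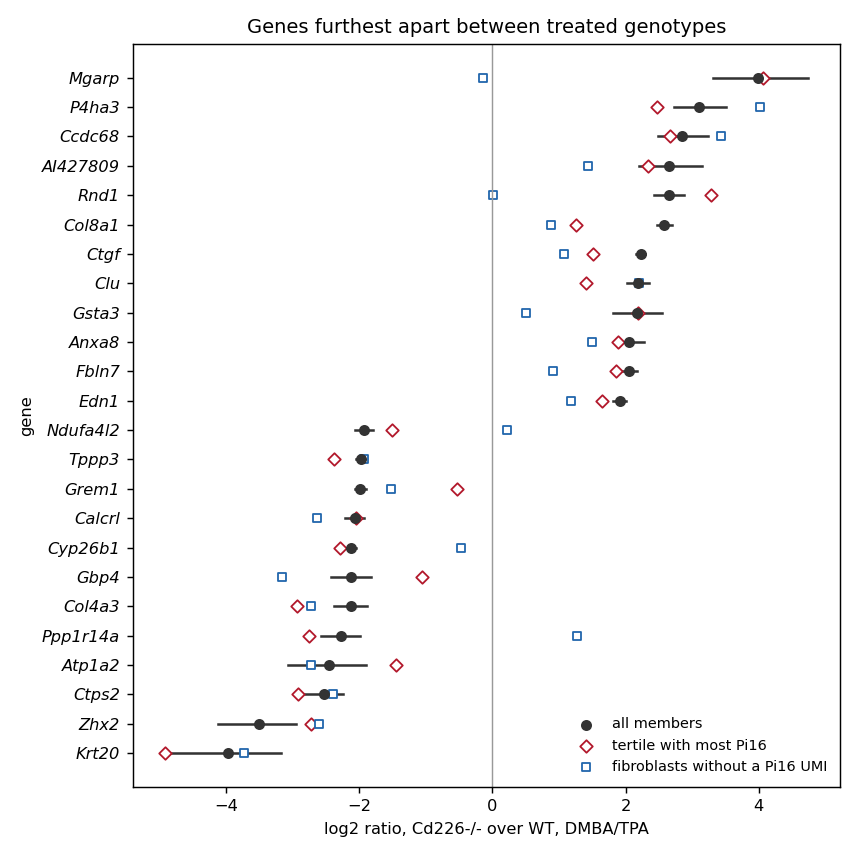
Log2 ratio of Cd226-/- DMBA/TPA to WT DMBA/TPA for 24 genes in Pi16 fibroblasts, with 95% counting intervals. Diamonds show the highest Pi16 tertile and squares the fibroblasts without Pi16 UMIs, and Grem1 lies nearer to 0 in the highest tertile.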

How the data were processed

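Per the submitters' processing notes, the authors made the matrices with Cell Ranger 3.1.0 on mm10, and the deposited values are raw UMI counts per gene and barcode for 31053 genes, with counts of antibody tags for CD45 and DNAM-1. Libraries were made with a droplet 3' kit, per the labels' protocols. Cells were grouped by library as labelled. The membership limits stand at the start of the results. UMIs were summed over the members of each library, scaled to counts per 1000000 UMIs (CPM), and compared as ratios with exact conditional binomial 95% intervals. A gene was called at 50 UMIs over both libraries and 1.5-fold, and a group without a UMI was set to a floor of 3 UMIs. Genes named as farthest apart came from the 12 in each direction whose interval bound nearest to equality was most extreme, among genes called under both scalings (totals and trimmed means), found in at least 5% of members of the higher library and held there at no less than 0.1 times the level of cells below the collagen share. Mitochondrial, ribosomal, hemoglobin, variable-receptor, sex-linked and predicted genes were left out of that choice. Other genes were named from 34 lists, and single genes among them were chosen after their values were seen. Members and lists were chosen with earlier results of these data known. With 1 library in each group, and nothing to say how the pooled mice varied, no p-value was computed. Thinning drew UMIs without replacement. The ratio and its interval were tested on simulated data. The 12 planned and 3 added alternatives covered membership, depth, scaling, doublets (Scrublet in scanpy 1.11.5, expected rate 0.06) and low counts. The work used matplotlib 3.10.9, pandas 2.3.3, scipy 1.17.1 and numpy 2.4.6 under Python 3.11.15. The naive CD45+ library was left out of the comparisons because it is a leukocyte sort.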

Additional observations from a re-analysis of the deposited data

Results flagged for a closer look

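The untreated CD45+ library, which no comparison used, held 102 cells that met the membership rule, although it was sorted for leukocytes. They were 69.4% of its 147 fibroblasts (exact binomial interval 61.3 to 76.7). Their median depth was 15957 UMIs, above that of members in the other libraries.

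The DNAM-1 antibody tag, another measurement that was not used, had a median count of 2 in Cd226-/- DMBA/TPA members, 16 in WT DMBA/TPA members and 107 in naive CD45- members. Cells with Ptprc had medians of 3, 26 and 127 in the same libraries. Members held almost no Cd226 RNA, and the origin of the tag counts in them was not tested.

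A few genes stood above naive skin in one treated library and below it in the other, each by at least 1.5-fold. The log2 ratio to naive CD45- of Wisp1, a CCN-family matricellular protein, was 0.71 in Cd226-/- and -1.14 in WT. For Aldh1a3 it was 0.65 and -0.77, and for AI427809 it was 0.97 and -1.68. The other direction held for Mfap4, at -0.64 and 0.65, for Ctps2 (CTP synthase), at -1.84 and 0.70, and for Col4a3, at -0.82 and 1.31. In the tertile of members richest in Pi16, Ctps2 and Col4a3 kept both calls. There Aldh1a3 was -0.33 in WT and AI427809 was 0.45 in Cd226-/-, both under 1.5-fold, and the direction turned for Mfap4 in Cd226-/- (1.10) and for Wisp1 in WT (0.58). Over all 12113 genes compared, 8 were higher in Cd226-/- and lower in WT and 18 the other way round. The difference was not tested, since each group was 1 library.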

How the results depend on the processing

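The share of fibroblasts that were members moved with the threshold. In Cd226-/- DMBA/TPA it was 79.83% at 2 Pi16 UMIs, 69.43% at 5, 71.97% at 3 per 10000 UMIs, 70.63% with collagen and decorin at 3% or more, and 65.84% with the rule applied to cells thinned to 5000 UMIs. In WT DMBA/TPA it was 80.48% at 2 UMIs, 68.14% at 5, 71.95% at the collagen limit and 68.5% after thinning. In naive CD45- it was 59.12% at 2 UMIs, 43.36% at 5, 54.42% at 3 per 10000, 49.52% without doublets, 54.08% at 5% mitochondrial UMIs and 45.57% after thinning. The treated shares stayed above the naive share at each of these settings. Counts of called genes moved with the minimum. With 1 UMI in each library, Cd226-/- against WT gave 1707 higher and 2160 lower, Cd226-/- against naive 3266 and 2868, and WT against naive 3125 and 2651. A minimum of 200 UMIs gave 418 higher and 458 lower between the treated libraries. In the tertile richest in Pi16, 1322 genes were higher in Cd226-/- and 1155 in WT than in naive members. Of the counts, 80 stayed within 1.5 times and 10 moved. Of the list medians, 1166 stayed, 230 moved and 9 changed sign, and of the named genes 948 stayed, 131 moved and 1 lost its call. The tertile richest in Pi16 moved 52 of the named genes (19 stayed) and 49 of the list medians (29 stayed) beyond their counting interval, more than any other setting. Members thinned to 5000 UMIs moved 22 named genes (50 stayed) and 25 list medians (63 stayed). The collagen limit moved 18 named genes (54 stayed) and 25 list medians (66 stayed). Weighting each cell equally moved 14 named genes (58 stayed) and 16 list medians (82 stayed). The gene that lost its call was Grem1 between the treated libraries, at -0.5371 in the tertile richest in Pi16. Among medians of at least 1.5-fold over at least 5 measured genes, those that changed sign were those of the cell cycle list between the treated libraries (-0.03325 in that tertile) and of 3 marker lists of other cells. Neutrophil and mast cell markers between the treated libraries gave -0.4416 at 2 Pi16 UMIs, -0.0416 with the thinned rule, -0.04175 in that tertile, -0.4316 with 1 UMI and -0.3065 with members thinned. Keratinocyte markers in WT against naive gave -0.3585 at the collagen limit and -0.2973 without members holding other cells' markers, and Schwann cell and melanocyte markers gave -0.02203 in the last of these. Smaller medians also changed sign in that tertile, such as that of the lipid list in Cd226-/- against naive (-0.18) and of the chemokine list between the treated libraries (-0.01), and the endothelial markers, with 4 genes measured there, gave 1.08 in Cd226-/- against naive, where all members gave -1.29. The causes were not tested. The tertile, the thinned rule and the marker exclusion were chosen after seeing the data. No paired analysis was possible because each group has 1 library. Pooled mice, a sort that differed between treated and naive skin and depth per cell limit every comparison.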

Other observations

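The metallothioneins Mt1 and Mt2, which bind zinc, held 11878 and 4576 CPM in Cd226-/- DMBA/TPA, 7076 and 2824 in WT DMBA/TPA, and 1842 and 601 in naive CD45-. The mitochondrial superoxide dismutase Sod2 held 424, 303 and 59.4. Cyp1b1, a P450 enzyme that activates DMBA, held 179.5, 162 and 8.02. Of the list of aryl hydrocarbon and redox genes, 12 of 30 were higher and 7 lower in Cd226-/-, and 9 of 30 higher and 8 lower in WT, so the list did not lean far to either side. Glycolysis and hypoxia genes were higher at 13 of 26 in Cd226-/- (3 lower) and at 10 of 27 in WT (3 lower), with Ldha (lactate dehydrogenase A) at 507, 365 and 118.

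Lipid genes were higher at 10 of 26 in Cd226-/- (6 lower) and at 12 of 26 in WT (3 lower), where 17.6% and 14.3% of all genes were higher. In the tertile of members richest in Pi16 the Cd226-/- counts were 8 higher and 8 lower of 22, and the median log2 ratio was -0.18, against 0.45 over all members. Fabp4, a fatty acid binding protein, held 423, 294 and 32.0, and the lipase Lpl 758, 1322 and 654. Lpl held 600.5, 1027 and 769 in that tertile, where it was below naive in Cd226-/- and under 1.5-fold above it in WT. Targets of p53 were higher at 8 of 20 in Cd226-/- (5 lower) and 11 of 20 in WT (1 lower). Phlda3, such a target, held 59.1, 58.3 and 16.4.

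A few genes, chosen after their values were seen, differed in the same direction between the treated libraries in members, in fibroblasts without Pi16 and in cells below the collagen share. Zhx2, a transcriptional repressor, held 0.947 CPM in Cd226-/- members and 10.8 in WT members, 0.963 and 5.85 in fibroblasts without Pi16, and 1.13 and 6.35 in the other cells. Glo1 (glyoxalase 1) held 154 and 70.3, 179.6 and 74.5, and 118 and 70.0 in the same order. Ctps2 held 3.55 and 20.6, 3.13 and 16.5, and 2.96 and 14.3. Naive members, of mixed genotype, held 19.8 of Zhx2, 67.2 of Glo1 and 12.7 of Ctps2. The size of the ratio for Zhx2 was larger in members than in the other cells. The BALB/c substrain of each line is not given in the sources used here, and what sets these ratios was not tested.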
